A study of Mus musculus with 18 samples.

Results

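The microRNAs miR-221 and miR-222 were followed through eye, lung and testicle as both arms of each precursor: mmu-miR-221-3p, mmu-miR-221-5p, mmu-miR-222-3p and mmu-miR-222-5p (mmu, for mouse, is left out from here on). These 4 mature miRNAs were taken by name from the 1431 listed in every library. Of the 4, 3 had enough counts to be tested among 642 miRNAs, and miR-222-5p did not. The study profiled small RNA of normal male C57BL/6 mice aged 8 to 12 weeks, with no treatment and no genetic change named in the labels. There were 18 libraries in 6 groups of 3: left eye, right eye, left lung, right lung, left testicle and right testicle, each a whole-organ label with no cell sorting named. Whether libraries of a group, or both sides of an organ, came from separate mice is not stated in the labels. The p values measure the spread between these libraries, and n = 6 for an organ may overstate the replication.

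MiR-221 and miR-222 are excised from hairpins that lie side by side on the X chromosome and are known to be made from one primary transcript. A miRNA guides Argonaute to messenger RNAs that pair with its seed, bases 2 to 8 from the 5′ end, so miRNAs with one seed can share targets. Known targets of this seed include the CDK inhibitor Cdkn1b (p27) and the receptor tyrosine kinase Kit. In blood vessels the pair is known for restraining Kit signalling in endothelial cells and for promoting growth of smooth muscle cells, and Kit is also needed by the germ cells of the testis. Targets were not measured in these libraries.

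RefSeq (build GRCm38.p6) lists 3 of the 4 mature sequences. They are shown with the seed in capitals, since the seed is what the pair has in common.
miR-221-3p: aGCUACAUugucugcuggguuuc
miR-222-3p: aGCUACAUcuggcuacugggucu
miR-221-5p: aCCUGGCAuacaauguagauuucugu
The 3p arms lie at chrX:19146307-19146329 (miR-221-3p) and chrX:19146901-19146923 (miR-222-3p), and miR-221-5p at chrX:19146344-19146369, all on the minus strand. Both 3p arms share their first 8 bases and with them the seed. Aligned from the 5′ end without gaps, they matched at 11 of 23 positions, of which 3 lay beyond the shared start. MiR-221-5p has another seed, which no other mature miRNA of the RefSeq table carries. The 3p seed stands in 1 further listed miRNA, miR-1928 on chromosome 1, which is not among the miRNAs of these tables. No other miRNA had counts identical to those of a member.

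The hairpins show how each mature arm sits in its precursor, with the listed arms in capitals.
Mir221: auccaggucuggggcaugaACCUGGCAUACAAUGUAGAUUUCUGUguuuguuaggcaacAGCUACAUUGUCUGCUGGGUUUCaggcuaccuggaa
Mir222: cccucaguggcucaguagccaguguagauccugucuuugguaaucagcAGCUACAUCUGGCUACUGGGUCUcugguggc
Mir221 (95 bases) lies at chrX:19146294-19146388 and Mir222 (79 bases) at chrX:19146893-19146971, with 504 bases between them. On the minus strand Mir222 comes first. In the GENCODE M21 annotation no other gene overlaps either hairpin, so both are intergenic. The nearest gene upstream on the same strand is the non-coding Gm14636, which ends 10009 bases from Mir222. The nearest other miRNA hairpin, Mir5617, lies 1716154 bases away.

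Levels are given as counts per 1e6 (CPM) scaled by the trimmed mean of M values (TMM), unless library totals are named. Library totals were 2451484 to 2790471 counts in eye and lung and 952608 to 1893132 in the testicle. Markers of the labelled organs were in place: the summed eye markers (miR-183/182/96, miR-204, miR-211, miR-184, miR-124 and miR-9) had 239899 to 319285 CPM in eyes, and the summed testicle markers (such as miR-202 and miR-741) 54588 to 89460 CPM in testicles. The eye markers had 2602 to 6613 CPM in lungs, highest in right lung 1, and 17725 to 39287 CPM in testicles, where miR-204-5p and miR-184-3p led with means of 15090 and 7217 CPM. In lungs the testicle markers had 12.7 to 129 CPM, highest in right lung 3. Left lung 1 and right lung 1 stood apart from the other lungs in miR-221-5p, as described below. Results that rest on these libraries are given with and without them where both were run.

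MiR-222-3p was the most abundant of the 4 arms in every library, highest in the lung, lower in the eye and lowest in the testicle. Left eyes had 387, 327 and 388 CPM and right eyes 293, 328 and 342. Left lungs had 2011, 1647 and 1574 CPM and right lungs 2166, 1944 and 1320. Left testicles had 89.1, 207 and 134 CPM and right testicles 119, 207 and 144. Every lung library lay above every eye library, and every eye library above every testicle library. Of the tested miRNAs, 17.3% had every eye below every lung library, 33% every eye above every testicle library and 18.1% every lung above every testicle library.

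**Figure D1:**
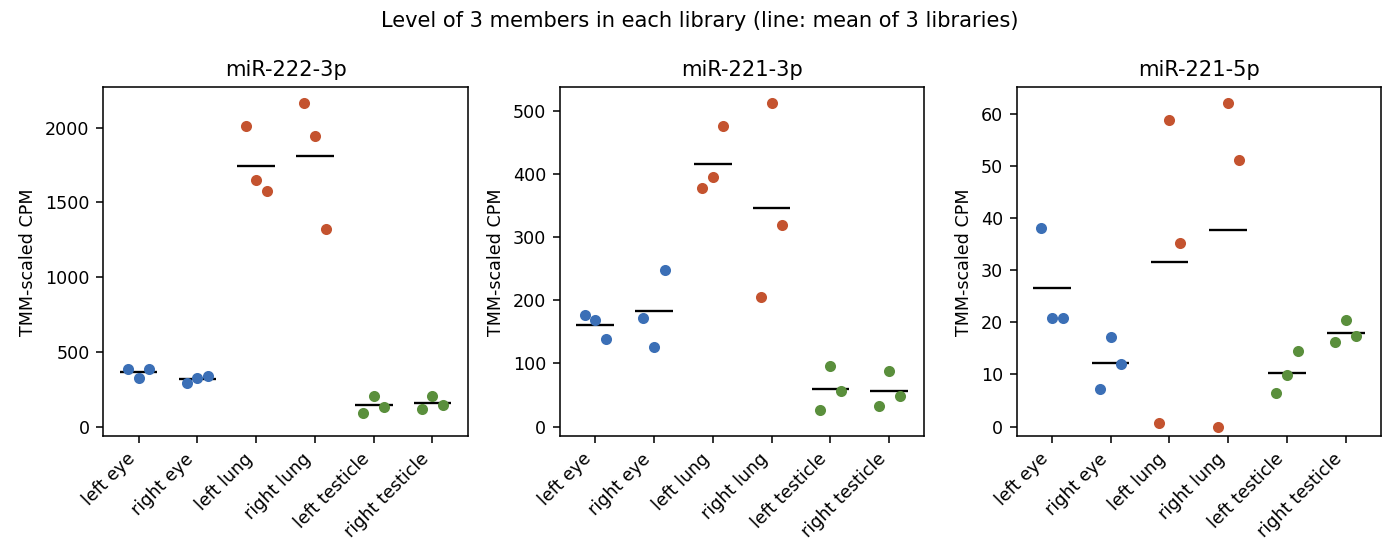
TMM-scaled CPM (linear axes, each with its own range) of miR-222-3p, miR-221-3p and miR-221-5p in the 18 libraries by group; points are libraries in the order of their numbers and lines are means of 3. MiR-222-3p separates the 3 organs, miR-221-3p of right lung 1 (205 CPM) falls among the eyes, and miR-221-5p is near 0 in left lung 1 and right lung 1.

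The mean level of miR-222-3p in CPM was 344 ± 37.3 for eyes, 1777 ± 316 for lungs and 150.0 ± 48.0 for testicles (SD, n = 6 each). The lung level was 5.18-fold that of the eye (log2 fold change for eye against lung -2.37, SE 0.22; edgeR quasi-likelihood adjusted p 6.2e-08). Eye exceeded testicle by 2.29-fold (log2 1.19, SE 0.22; edgeR adjusted p 8.4e-05), and lung exceeded testicle by 11.8-fold (log2 3.56, SE 0.23; edgeR adjusted p 6.9e-10). Differences were common among all tested miRNAs: 59.8% differed between eye and lung, 79.3% between eye and testicle and 76.5% between lung and testicle. By direction, eye was below lung for 24.5% and above it for 35.4%, eye was above testicle for 40.2% and below it for 39.1%, and lung was above testicle for 27.4% and below it for 49.1%. These balances depended on the scaling and on whether right eye 2 was in the fit. Between eye and lung 227 were higher in the eye and 157 lower. They were 196 and 262 with left testicle 1 as TMM reference and 198 and 271 without right eye 2. Between lung and testicle 176 were higher in the lung and 315 lower. They were 233 and 267 with left lung 1 as reference and 246 and 278 without right eye 2. The scaling was done anew whenever a library was left out. In lung against testicle an eye library acts only through the choice of tested miRNAs, the scaling and the spread shared by all groups. MiR-222-3p ranked between 56 and 73 among all miRNAs of a lung library, between 134 and 154 in an eye and between 183 and 235 in a testicle. In whole organs, fewer cells of a type and less RNA per cell cannot be told apart.

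MiR-221-3p, the other carrier of the seed, followed the same order of organs at lower levels. Left eyes had 177, 169 and 138 CPM and right eyes 173, 126 and 248. Left lungs had 378, 395 and 477 CPM and right lungs 205, 513 and 319. Left testicles had 25.8, 95.3 and 57.0 CPM and right testicles 33.3, 88.6 and 47.8. In the lung, 5 of 6 libraries lay above every eye library and right lung 1 did not, while no testicle library reached the level of any eye or lung.

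Mean miR-221-3p levels in CPM were 172 ± 42.7 for eyes, 381 ± 111 for lungs and 58.0 ± 28.6 for testicles (SD, n = 6 each). The lung exceeded the eye by 2.21-fold (log2 fold change for eye against lung -1.15, SE 0.32; edgeR adjusted p 0.0045). The eye exceeded the testicle by 2.94-fold (log2 1.56, SE 0.33; edgeR adjusted p 0.00033) and the lung exceeded it by 6.51-fold (log2 2.70, SE 0.34; edgeR adjusted p 1.6e-06). Without left lung 1 and right lung 1, eye against lung was -1.99 (edgeR adjusted p 6.2e-05) and lung against testicle 3.47 (edgeR adjusted p 2.8e-07) for miR-221-3p. In the testicle both 3p arms were highest in left testicle 2 and right testicle 2 and lowest in left testicle 1 and right testicle 1. Left testicle 1 had the fewest counts of any library, with 24 of miR-221-3p and 83 of miR-222-3p.

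The differences of both 3p arms kept their direction and their side of the threshold under 5 scalings of the libraries. On the log2 scale miR-222-3p ranged over -3.05 to -2.37 for eye against lung and 3.56 to 4.19 for lung against testicle, and miR-221-3p over -1.80 to -1.15 and 2.70 to 3.33. Leaving out right eye 2, with TMM scaling done anew, changed the folds by more than 1.5 times from those with all libraries under TMM. On the log2 scale the values were then -3.10 and 4.21 for miR-222-3p and -1.75 and 3.34 for miR-221-3p, all still past the threshold. Between lung and testicle the median of all 642 log2 fold changes was -0.90 with TMM and reached -0.31 with left lung 1 as the TMM reference library, so a change is also given relative to it. Relative to that median, lung against testicle was 4.42 to 4.50 for miR-222-3p and 3.58 to 3.65 for miR-221-3p on the log2 scale. Between eye and lung the relative values were -2.56 to -2.38 for miR-222-3p and -1.29 to -1.15 for miR-221-3p. Between eye and testicle they were 1.15 to 1.17 and 1.5 to 1.57.

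**Figure D2:**
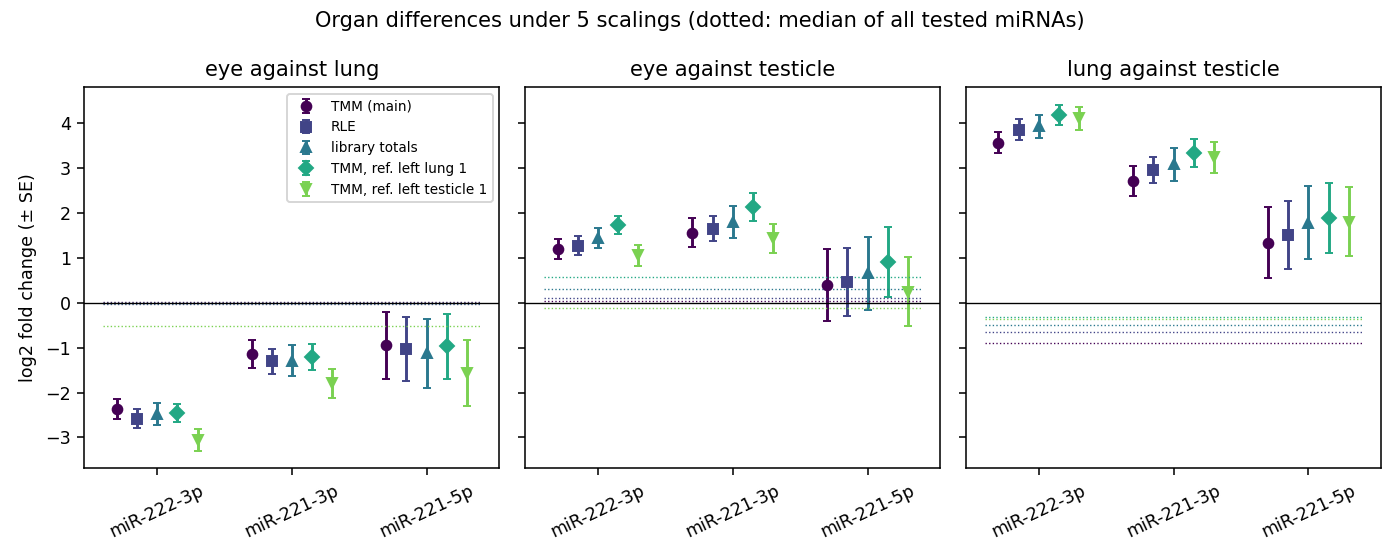
Fitted log2 fold change with its SE for 3 members in the 3 organ comparisons, each under 5 scalings; dotted lines mark the median of all tested miRNAs under the same scaling. The 3p arms lie on one side of 0 throughout, and the bars of miR-221-5p are the widest.

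MiR-222-3p exceeded miR-221-3p in 18 of 18 libraries, but by an amount that depended on the organ. This ratio is taken within a library and does not depend on scaling. The ratio of counts was 2.19, 1.93 and 2.81 in left eyes and 1.70, 2.60 and 1.38 in right eyes. It was 5.31, 4.17 and 3.30 in left lungs and 10.5, 3.79 and 4.13 in right lungs. It was 3.46, 2.18 and 2.36 in left testicles and 3.57, 2.34 and 3.0 in right testicles. The ratio thus ranged over 1.38 to 2.81 in eyes, 3.30 to 10.5 in lungs and 2.18 to 3.57 in testicles.

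On the log2 scale the mean ratio was 1.03 ± 0.39 for eyes, 2.26 ± 0.60 for lungs and 1.46 ± 0.31 for testicles (SD, n = 6 each). Eye and lung differed by -1.23 (exact two-sided permutation test, p 0.0022, the smallest it can give; 0.0065 adjusted over 3 organ pairs). Lung and testicle differed by 0.80 (exact permutation, adjusted p 0.0097), and eye and testicle by -0.43, which did not pass (exact permutation, adjusted p 0.058). Without left lung 1 and right lung 1, whose ratios were the highest, the mean ratio of the other 4 lungs was 3.85 ± 0.403. Lung against testicle was then 0.48 on the log2 scale and no longer passed (exact permutation, adjusted p 0.05), and eye against lung was -0.91 (exact permutation, adjusted p 0.029). Eye against testicle passed without left eye 3 (-0.52, exact permutation, adjusted p 0.032), without right eye 2 (-0.50, exact permutation, adjusted p 0.045) or without left testicle 2 (-0.50, exact permutation, adjusted p 0.045).

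The same ratio was fitted with limma for all 109 pairs of neighbouring hairpins at most 10000 bases apart on one strand, using the more abundant arm of each. This fit was run on all 18 libraries only. It was not run without left lung 1 and right lung 1, without which lung against testicle did not pass the exact permutation. For miR-222-3p to miR-221-3p, eye against lung was -1.23 (SE 0.26; limma adjusted p 0.0023) and lung against testicle 0.80 (SE 0.26; limma adjusted p 0.024). Eye against testicle was -0.43 (SE 0.26; limma adjusted p 0.19). Unequal ratios were frequent: 29.4% of the neighbouring pairs differed between eye and lung, 45.9% between eye and testicle and 39.4% between lung and testicle.

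**Figure D3:**
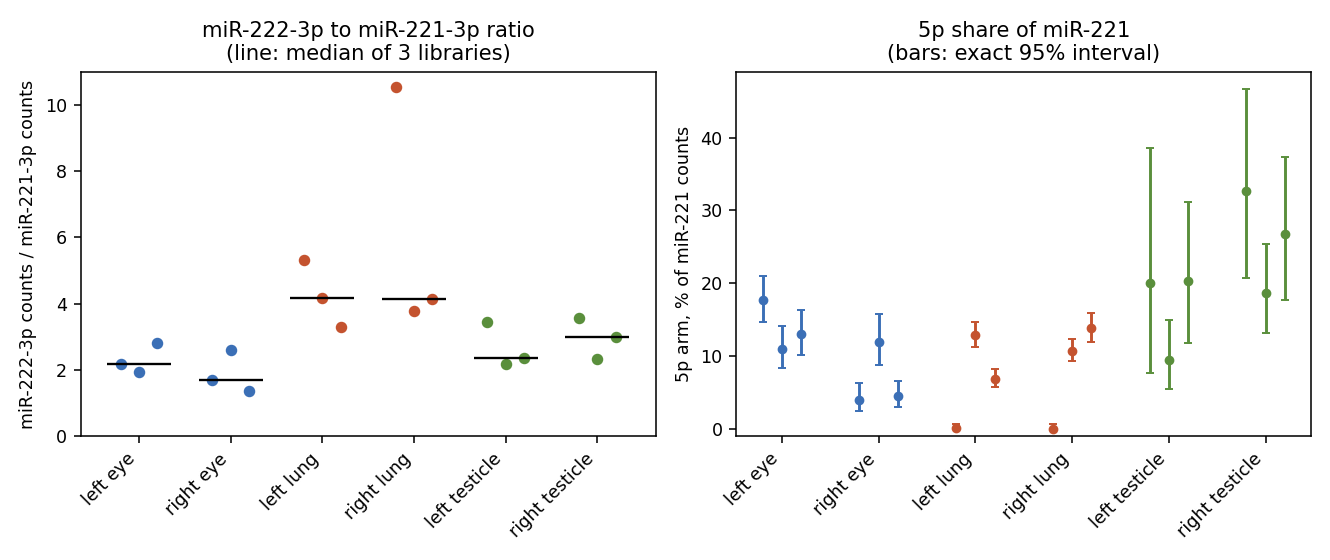
Left, counts of miR-222-3p divided by counts of miR-221-3p in each library, with the median of each group as a line; right, miR-221-5p as percent of all miR-221 counts, with exact 95% binomial intervals for counting error. Right lung 1 has a ratio of 10.5 and no miR-221-5p count, and left lung 1 a 5p share of 0.192%.

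The 5p arms were the minor products of both hairpins, and much more so of Mir222. MiR-221-3p exceeded miR-221-5p in 18 of 18 libraries. MiR-221-5p held 4.03% to 17.7% of miR-221 counts in eyes and 9.47% to 32.7% in testicles. In 4 of the 6 lungs it held 6.88% to 13.8%. MiR-222-5p had 15 counts in all against 38284 of miR-222-3p, which is 0.0392% of miR-222 counts. These fell in 6 libraries: left lung 1, 2 counts; left lung 2, 3; right lung 1, 6; right lung 3, 2; right eye 2, 1; and right testicle 3, 1. Summed over the 6 lungs it had 13 counts, a share of 0.0411% (exact 95% interval 0.0219% to 0.0703%). With 1 count each, the shares over the eyes (0.0182%, exact 95% interval 0.000461% to 0.102%) and the testicles (0.0832%, exact 95% interval 0.00211% to 0.463%) had intervals that overlapped that of the lung. Without the filter on low counts the edgeR level of miR-222-5p was lower in eye than lung (log2 -2.95, adjusted p 0.015), and lung against testicle was 2.60 (adjusted p 0.12). In that setting the log2 ratio of miR-222-3p to miR-222-5p with 0.5 counts added was higher than in the testicle by 3.29 in the lung (limma adjusted p 0.0012) and by 2.34 in the eye (limma adjusted p 0.010). These values rest on 1, 13 and 1 counts of miR-222-5p, and where it has 0 counts the ratio is set by the added 0.5 and the 3p count. Such intervals cover counting error only, as PCR copies of a molecule cannot be recognised in these counts.

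MiR-221-5p varied more within the eye (coefficient of variation 54.7%) and within the lung (81.1%) than either 3p arm did there (10.8% to 29.1%). Left eyes had 38.0, 20.9 and 20.7 CPM and right eyes 7.25, 17.2 and 11.9. Left lungs had 0.726, 58.7 and 35.2 CPM and right lungs 0, 62.0 and 51.2. Left testicles had 6.44, 9.96 and 14.5 CPM and right testicles 16.2, 20.4 and 17.5. Left lung 1 and right lung 1 had 2 and 0 counts where the other lungs had 120 to 192, although they held 1042 and 532 counts of miR-221-3p. A count of 0 in right lung 1 allows up to 3 counts, or 1.16 CPM of the library total.

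Mean miR-221-5p levels in CPM were 19.3 ± 10.6 for eyes, 34.6 ± 28.1 for lungs and 14.2 ± 5.12 for testicles (SD, n = 6 each), and all 3 organs overlapped. No organ pair passed the edgeR test: eye against lung was -0.94 on the log2 scale (SE 0.74; adjusted p 0.29), eye against testicle 0.39 (SE 0.79; adjusted p 0.66) and lung against testicle 1.34 (SE 0.78; adjusted p 0.13). Without left lung 1 and right lung 1 the lung mean was 51.8 ± 11.9 CPM (SD, n = 4). Eye against lung was then -2.19 (edgeR adjusted p 3.8e-06) and lung against testicle 2.49 (edgeR adjusted p 1.5e-06). Leaving out right lung 1 alone gave -1.44 (edgeR adjusted p 0.031) and 1.64 (edgeR adjusted p 0.018), and leaving out left lung 1 alone gave 1.63 for lung against testicle (edgeR adjusted p 0.034). Without right eye 2, and with the scaling done anew, lung against testicle was 1.92 (edgeR adjusted p 0.038).

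The listed length of miR-221-5p, 26 bases, is greater than that of either 3p arm (23 bases). Length was looked at after these values were seen. Of the miRNAs listed with at least 25 bases, 4 had 100 or more counts over all libraries: miR-221-5p, miR-3535, miR-541-5p and miR-182-5p. MiR-541-5p had 7 and 9 counts in left lung 1 and right lung 1 against 46 to 108 in the other lungs, and miR-3535, also 26 bases long, had 0 and 0 against 18 to 30. MiR-182-5p had 544 and 600.5 CPM against 950.3 to 1360.2. At a mean of 10 CPM or more in the other 4 lungs, 2 long miRNAs besides miR-221-5p remained, miR-541-5p and miR-182-5p, and both lay below every other lung library in left lung 1 and in right lung 1. Of 289 miRNAs of at most 24 bases at that level, 57 (19.7%) did so. With 2 miRNAs this is a description. The log2 level of these 2 libraries over the other 4 was -5.27 for miR-221-5p, -2.54 for miR-541-5p and -1.06 for miR-182-5p. Over miRNAs of at most 24 bases its median was -0.22 and its lowest value -3.62 (miR-208a-3p, 22 bases), and miR-34b-5p (-2.64) and miR-193a-3p (-2.61) also lay below miR-541-5p. Of 342 miRNAs at that level, those without a listed length were left out of these values. Among them miR-297c-5p (-4.06, with 0 CPM also among the other lungs) and miR-133a-3p (-2.56) lay below miR-541-5p as well. Whether length has a part in the low counts of miR-221-5p was not tested.

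**Figure D4:**
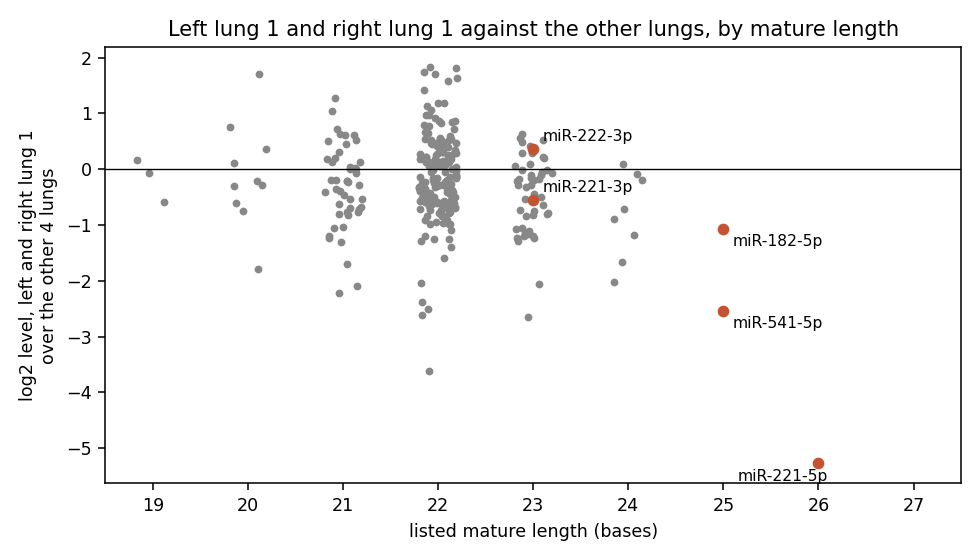
Each point is a tested miRNA with a listed length and at least 10 CPM in the other 4 lungs; the horizontal axis is its listed mature length in bases (jittered) and the vertical axis the log2 level (CPM plus 1) of left lung 1 and right lung 1 over the other 4 lungs. MiR-221-5p is the lowest point at -5.27, and both 3p arms lie among miRNAs of their length.

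The 3p to 5p ratio of miR-221 was compared between organs with limma over 191 miRNAs that had both arms tested. Its mean log2 was 3.28 ± 0.94 for eyes, 5.16 ± 3.32 for lungs and 1.94 ± 0.74 for testicles (SD, n = 6 each). Within the lung only 2 of the 191 ratios had a larger SD, and the median SD was 0.82. Lung against testicle was 3.22 (SE 1.15; limma adjusted p 0.041), where 35.1% of arm ratios differed. Eye against lung was -1.88 (SE 1.15; limma adjusted p 0.35; 16.8% of ratios differed) and eye against testicle 1.34 (SE 1.15; limma adjusted p 0.39; 28.8%). With 5 counts added to each arm in place of 0.5, the values were 2.65 for lung against testicle (limma adjusted p 0.0082) and -1.19 for eye against lung (limma adjusted p 0.28). Without left lung 1 and right lung 1, eye against lung turned to 0.24 (limma adjusted p 0.76), lung against testicle was 1.11 (limma adjusted p 0.053) and eye against testicle 1.34 (limma adjusted p 0.012). The call between lung and testicle was also lost without any one of left eye 3 (3.22), left lung 1 (2.31), right lung 1 (2.02), left testicle 1 (3.11), left testicle 3 (3.12), right testicle 1 (3.09), right testicle 2 (3.37) and right testicle 3 (3.20), with limma adjusted p 0.0501 to 0.103.

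The design also sets the left organ against the right, with 3 libraries a side. No member passed. MiR-222-3p was 0.20 for left against right eye (log2 fold change, SE 0.17), -0.15 for lung (SE 0.31) and 0.07 for testicle (SE 0.33; edgeR adjusted p 0.92 to 0.98 for the 3 organs). MiR-221-3p was -0.17 (SE 0.28), 0.23 (SE 0.35) and 0.26 (SE 0.52; edgeR adjusted p 0.89 to 0.98). Leaving out 1 library or changing a setting turned the sign of miR-222-3p in lung and testicle and of miR-221-3p in eye and testicle. MiR-221-5p was 1.13 for left against right eye (SE 0.40; edgeR p 0.021 before adjustment and adjusted p 0.88). It was -0.29 for lungs (SE 1.48) and -0.62 for testicles (SE 0.29; edgeR adjusted p 0.96 and 0.57).

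Over all miRNAs edgeR called 0 of 487 (0%) between left and right eye, 0 of 430 (0%) for lung and 0 of 464 (0%) for testicle. An unadjusted p under 0.05 was reached by 18 (3.7%), 1 (0.233%) and 36 (7.76%), and DESeq2 called 1, 0 and 1. A joint edgeR test of whether the side difference varied between organs gave F 0.25 for miR-221-3p, 0.81 for miR-221-5p and 0.31 for miR-222-3p (adjusted p 1 for each). That test called 0 of 642 miRNAs (0%), with 21 (3.27%) at an unadjusted p under 0.05, and no other tool was run for it.

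Marker miRNAs of several cell types also differed between organs. Their counts stand beside the shares over all tested miRNAs. Eye was below lung for 24.5% and above it for 35.4%, and eye was above testicle for 40.2% and below it for 39.1%. Lung was above testicle for 27.4% and below it for 49.1%. The few calls of the mesenchymal and erythroid lists are not read as a result about those miRNAs. Endothelial, leukocyte and epithelial markers were mostly highest in the lung, as the 3p arms were. Between eye and testicle, where both 3p arms were higher in the eye, epithelial markers had that direction (4 of 5 higher in the eye), smooth muscle (3 of 3 tested lower) and most leukocyte markers (4 of 7 lower, 1 higher) the opposite one. Both endothelial arms, miR-126a-3p and miR-126a-5p, were higher in lung than eye and than testicle, and neither differed between eye and testicle (miR-126a-3p 25019 ± 3408 and 27309 ± 3015 CPM, SD, n = 6; log2 -0.13, edgeR adjusted p 0.39). Summed, they ranged from 46779 to 65067 CPM in lungs, 20564 to 29442 in eyes and 23544 to 31176 in testicles. Within the lung this sum was highest in left lung 1 (65067 CPM) and right lung 1 (63756 CPM). MiR-126a-3p had a mean of 59269 CPM in these libraries against 43980 in the other lungs, and miR-126a-5p 5142 against 5716. Of 4 smooth muscle arms of miR-143 and miR-145a, 3 were tested. All 3 were lower in eye than lung and lower in eye than testicle, and 1, miR-145a-3p, was higher in lung than testicle. Their sum was 33832 to 46054 CPM in lungs, 15208 to 22445 in eyes and 32320 to 38981 in testicles. Of 5 mesenchymal arms of miR-199 and miR-214, 2 were lower in eye than lung and 1 lower in eye than testicle, and between lung and testicle 2 were higher and 1 lower in the lung. Their sum was 3396 to 6001 CPM in lungs, 2359 to 3102 in eyes and 2008 to 4233 in testicles.

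Of 7 leukocyte miRNAs, 6 were lower in eye than lung, as were 24.5% of all tested miRNAs. In lung against testicle 6 of them were higher (27.4% of all) and 1, miR-342-3p, lower (49.1% of all). Their sum was 20301 to 30981 CPM in lungs, 3146 to 4282 in eyes and 4281 to 5767 in testicles. Of 5 epithelial miRNAs of the 200 family, 5 were lower in eye than lung and 5 higher in lung than testicle, with sums of 22808 to 32341, 4163 to 9058 and 2094 to 3605 CPM in lungs, eyes and testicles. Of 4 erythroid miRNAs, 1 was higher in eye than lung, 1 was higher and 2 lower in eye than testicle, and 0 differed between lung and testicle. Their sum was 1501 to 5836 CPM in lungs, 1356 to 4176 in eyes and 235 to 10510.5 in testicles, lowest in left testicle 1. The 3 miRNAs of ciliated and germ cells (miR-34b-5p, miR-34c-5p and miR-449a-5p) had another order, lowest in the eye and highest in the testicle, with sums of 144 to 232 CPM in eyes, 6791 to 17400.5 in lungs and 80209 to 115180 in testicles. Counts of every endothelial, smooth muscle, mesenchymal, leukocyte, epithelial and erythroid marker were found in each organ. The part of these cell types in the levels of miR-221 and miR-222 was not tested.

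Angiogenesis is a process in which the pair is known to act, and a list of 20 other angiogenesis miRNAs had calls in both directions, as all tested miRNAs did. Between eye and lung 4 were higher in the eye, 9 lower and 7 did not pass, with a median log2 fold change of -0.55 against 0.00 over all tested miRNAs. Of all tested miRNAs, 35.4% were higher and 24.5% lower there. Between lung and testicle 10 were higher in the lung, 8 lower and 2 did not pass (median 0.60 against -0.90), where 27.4% of all were higher and 49.1% lower. Between eye and testicle 9 were higher in the eye, 8 lower and 3 did not pass (median 0.10 against 0.05). This is near the shares over all tested miRNAs, 40.2% higher and 39.1% lower. Its most abundant members besides miR-126a-3p were miR-24-3p, miR-23b-3p and miR-21a-5p. Eyes, lungs and testicles had 8726 ± 2302, 28939 ± 10241 and 5762 ± 1622 CPM of miR-24-3p, a miRNA of the miR-23/27/24 clusters (SD, n = 6 each). In the same order they had 8725 ± 635, 21200.1 ± 3159 and 4324 ± 828 CPM of miR-23b-3p, and 5935 ± 617, 18462 ± 4202 and 9522 ± 1784 CPM of miR-21a-5p (SD, n = 6 each).

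A list of 6 miRNAs known to act on CDK inhibitors of the Cip/Kip family, as this seed does on Cdkn1b, had another order of organs. Between lung and testicle 1 was higher in the lung, 4 lower and 1 did not pass (median log2 -1.30 against -0.90 over all tested miRNAs). Between eye and testicle 1 was higher in the eye, 4 lower and 1 did not pass (median -2.32 against 0.05), and between eye and lung 2 were below the lung level in the eye and 4 did not pass (median -0.12 against 0.00). Of all tested miRNAs, 49.1% were lower in lung than testicle, 39.1% lower in eye than testicle and 24.5% lower in eye than lung. With 6 members these counts are a description. MiR-93-5p, its most abundant member over all libraries, had a mean of 770.2 ± 126 CPM over eyes, 1527 ± 222.3 over lungs and 4027 ± 237 over testicles (SD, n = 6 each). MiR-92b-3p, the member with the opposite order, had 1869 ± 465, 1435 ± 363 and 491 ± 92.0 CPM (SD, n = 6 each).

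The miRNAs whose levels ran most alike to each 3p arm were found by the root mean square difference of centred log2 CPM over the 18 libraries. This is a description, and the 6 libraries of an organ share that organ. For miR-221-3p the closest were miR-27a-3p (0.41), miR-27b-3p (0.45), miR-23a-3p (0.49), miR-23b-3p (0.50) and miR-574-3p (0.51), against a median of 1.92 over the tested miRNAs. Eyes had 7012 ± 916, lungs 18017 ± 1557 and testicles 3458 ± 994 CPM of miR-27a-3p (SD, n = 6 each). For miR-222-3p the closest were miR-150-5p (0.34), miR-23a-3p (0.37), miR-24-2-5p (0.40), miR-764-5p (0.47) and miR-3074-2-3p (0.48), against a median of 2.24. MiR-764-5p was scarce, with means of 1.80 CPM in eyes, 20.2 in lungs and 0.106 in testicles. The prior count of 2 in the log2 CPM narrows its differences, so its likeness is limited by low counts. Of miR-150-5p, a lymphocyte miRNA, eyes had 1228 ± 215, lungs 9002 ± 1755 and testicles 723 ± 168 CPM (SD, n = 6 each). The arms of the pair differed from each other by 0.65, which placed miR-222-3p at position 13 in the order of likeness to miR-221-3p, and miR-221-3p at position 17 in that of miR-222-3p.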

How the data were processed

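The authors deposited raw counts for each mature miRNA and library, per the file headers. Total RNA was purified on spin columns and sequenced as standard BGI-500 libraries, per the labels' protocols. GRCm38.p6 is named in the submitters' processing notes. Which aligner and counter were used, and how multi-mapping reads were treated, is not given in the sources used here. If reads could be placed on more than 1 miRNA or trimmed by length, the counts of the arms would change with it.

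Counts were fitted with edgeR 4.0.16 in R 4.3.3 (filterByExpr by group, TMM, quasi-likelihood test) as 6 groups over 18 libraries for organs and 6 libraries for sides, with Benjamini-Hochberg adjustment over all tested miRNAs at 0.05. Log ratios (0.5 counts added) were tested with limma 3.58.1 or an exact permutation over libraries. DESeq2 1.42.0 was an alternative, among those of the closing section. The edgeR test was tried on simulated counts and the limma test on simulated log ratios, and the outcomes are not printed here. Fewer miRNAs were changed in the simulated counts than differed between these organs. The exact permutation and DESeq2 were not tried on simulated data. The members and lists were chosen with earlier results of these data known. Named were the members, miRNAs with a member's seed, the 5 closest in pattern to each 3p arm and, from each list, up to 4 abundant members, of which part is printed. MiR-222-5p was left untested by the filter.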

Additional observations from a re-analysis of the deposited data

Results flagged for a closer look

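In the lung the ratio of miR-222-3p to miR-221-3p was 10.5 in right lung 1, apart from the other 5 lungs, whose ratios were 3.30 to 5.31. The gap to the next library was 0.722 of the whole range, above the critical value of 0.625 for 6 libraries. On the log2 scale, on which this ratio was tested, the gap was 0.59 of the range and below that value. Right lung 1 had the least miR-221-3p of the lungs (205 CPM) and the most miR-222-3p (2166 CPM), no miR-221-5p count and the most miR-222-5p counts (6). Its summed eye (6613 CPM), leukocyte (30981 CPM) and smooth muscle markers (46054 CPM) were the highest of the lungs. Members of these lists did not all run that way. The eye marker miR-182-5p had 600.5 CPM in right lung 1 and 544 in left lung 1, against 950.3 to 1360.2 in the other lungs. These libraries had at most 73.8 CPM of miR-155-5p (leukocyte) and 697 of miR-145a-5p (smooth muscle), against at least 91.1 and 883 in the other lungs. In right lung 1 the summed testicle (12.7 CPM), mesenchymal (3396 CPM) and epithelial markers (22808 CPM) were the lowest. The part of these in the ratio was not tested. Levels and ratios were examined in 15 sets of 6 libraries, of which chance flags about 1 in 20.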

How the results depend on the processing

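Both 3p arms kept direction and threshold in the 3 organ comparisons under all 26 alternatives each, with log2 values of -3.10 to -2.34, 0.92 to 1.73 and 3.45 to 4.21 for miR-222-3p and -1.99 to -1.08, 1.22 to 2.13 and 2.53 to 3.47 for miR-221-3p. MiR-221-5p did not: lung against testicle passed with left lung 1 (1.88) or left testicle 1 (1.80) as TMM reference, without the low-count filter (1.35), and without left lung 1 and right lung 1 together (2.49), an alternative chosen after seeing the data. Eye against lung passed without the filter (-1.02) and without these 2 lungs (-2.19). Leaving out single libraries gave 0.95 to 1.92 and -1.77 to -0.75. Left against right calls numbered 6 in the eye and 1 in the lung without the filter, 1 in eye and 1 in testicle with DESeq2, and 0 to 1 in eye and 0 to 1 in testicle with a library left out (1 without left eye 2, without left testicle 2 or without right testicle 1). For left against right, miR-222-3p changed sign in the lung with library totals alone (0.042) and in the testicle without the filter (-0.030) and in the fit of all 18 libraries (-0.12). With a library left out, left against right ranged over -0.38 to 0.15 (miR-221-3p, eye), -1.02 to 0.29 (miR-221-5p, lung), -0.30 to 0.11 (miR-222-3p, lung), -0.26 to 0.71 (miR-221-3p, testicle) and -0.29 to 0.29 (miR-222-3p, testicle). Arm ratio calls (32 between eye and lung, 55 between eye and testicle, 67 between lung and testicle) numbered 52 and 95 in the first 2 pairs with a pseudocount of 5, and 97, 154 and 138 in the 3 pairs without the filter. For miR-221 without left lung 1 and right lung 1 the arm ratio was 0.24, 1.34 and 1.11 in these pairs, and with a library left out lung against testicle was 2.02 to 3.87. The miR-222-3p to miR-221-3p ratio of lung against testicle was 0.48 without these lungs, and eye against testicle was -0.52 to -0.32 with a library left out. The cause was not tested.

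The correlations between deviations of same-numbered left and right libraries were -0.418 to -0.110 in eyes, -0.0194 to 0.388 in lungs and 0.0212 to 0.236 in testicles, not over 0.1 in every pair of any organ, so the numbers were not taken as a pairing. The replicate block gave 383, 509 and 490 calls between organs and changed no call of a member. Of 6 libraries an organ, 0 eyes, 4 lungs and 5 testicles correlated best with their own number among the 3 libraries of the other side. Whether same-numbered libraries share a mouse or a processing step was not tested. The low testicle counts of both miR-221 arms limit the precision there.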
